A study of Oryza sativa with 6 samples.

Results

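Secreted defence proteins and inhibitors are 33 of the 2995 genes listed in the deposited expression table of rice leaves. They were chosen by their Swiss-Prot description, which had to name a chitinase, a β-1,3-glucanase, a thaumatin, osmotin, defensin, germin, dirigent or pathogenesis-related (PR) protein, or an inhibitor of proteases. The search words protease inhibitor (as against proteinase inhibitor), xylanase inhibitor, jacalin, barwin and salt stress-induced found 0 genes. Listed genes with a jacalin-like lectin or barwin domain but another description are counted below, outside the members. Secretion itself was not examined. LOC4327006 is described as PTI5, an activator of PR genes with an AP2 domain, which is a transcription factor of the nucleus, and LOC4332568 carries a Bet v 1 domain, the fold of the intracellular PR-10 proteins.

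Plants release many PR proteins into the space between cells or into the vacuole. Chitinases and β-1,3-glucanases cut the polymers of fungal cell walls, thaumatin-like proteins and defensins can harm fungal membranes, and protease inhibitors act against the digestive enzymes of insects and microbes or control the plant's own proteases. Many of these genes are induced in leaves by pathogens, salicylic acid or jasmonate, and several also by drought and salt.

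RNA came from leaves of PIF4v3m and of WYG7, with 3 libraries per line. The labels call the plants 3-week-old, whereas the methods of the study place the stress treatment later in growth, so the age is not settled. WYG7 is the rice cultivar in which the edited line was made, and all plants of both lines grew in pots and met drought together with fluctuating light (FL-DS). PIF4v3m was taken to be the line that the study calls PIL13v3m, in which a single nucleotide was deleted from the OsPIL13 promoter by CRISPR/Cas9. The labels leave this match unstated. It is 1 edited line. The study calls its replicates independent, but neither it nor the labels say that they were separate plants, so p-values measure only the spread between these libraries. Leaves were taken after the stress treatment, with no time of day given, and anything that differed between the plantings cannot be told apart from the deletion.

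Values are FPKM, read fragments scaled to transcript length and to the mapped reads of the library. Each of the 2995 listed genes had already been called by the authors between the same libraries. The members were therefore preselected for a difference, and a p-value computed here is not independent evidence of one. Genes of the same families that did not change are not listed. Nor are those that missed a 2-fold change or an adjusted p of 0.01 in the authors' comparison. The table itself carries no read depth, and the read totals in the supplement of the study were not used here, so low values are given without counting intervals. Differences are given as log2 fold changes of FPKM + 1 (PIF4v3m over WYG7) from limma, called at an adjusted p under 0.05 over all listed genes, and this scale understates the change of low genes. Fold values are ratios of mean FPKM.

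Of the 33 members, 25 were lower and 8 were higher in PIF4v3m than in WYG7. Over all listed genes, 54.1% were called lower and 45.8% higher. Past 2-fold on the log2 scale, 21 members were lower and 6 higher, against 33.9% and 26.6% of all listed genes (770 lower and 963 higher in place of 1016 and 797 after quantile normalization, with 18 members lower and 8 higher). The median log2 fold change was -1.26 for the members and -0.56 for all listed genes. The values of the lines did not overlap for any member, but this held for 99.4% of the listed genes, and with 3 libraries against 3 the exact two-sided permutation p was 0.1 for each member, the smallest this design allows. Summed over the members, FPKM was 275, 324 and 369 in the PIF4v3m libraries, against 1067, 1084 and 878 in the WYG7 libraries. A single inhibitor, cysteine proteinase inhibitor 1, made up a large part of both sums, and without it they were 112, 124 and 184 in PIF4v3m and 551, 522 and 359 in WYG7.

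**Figure D1:**
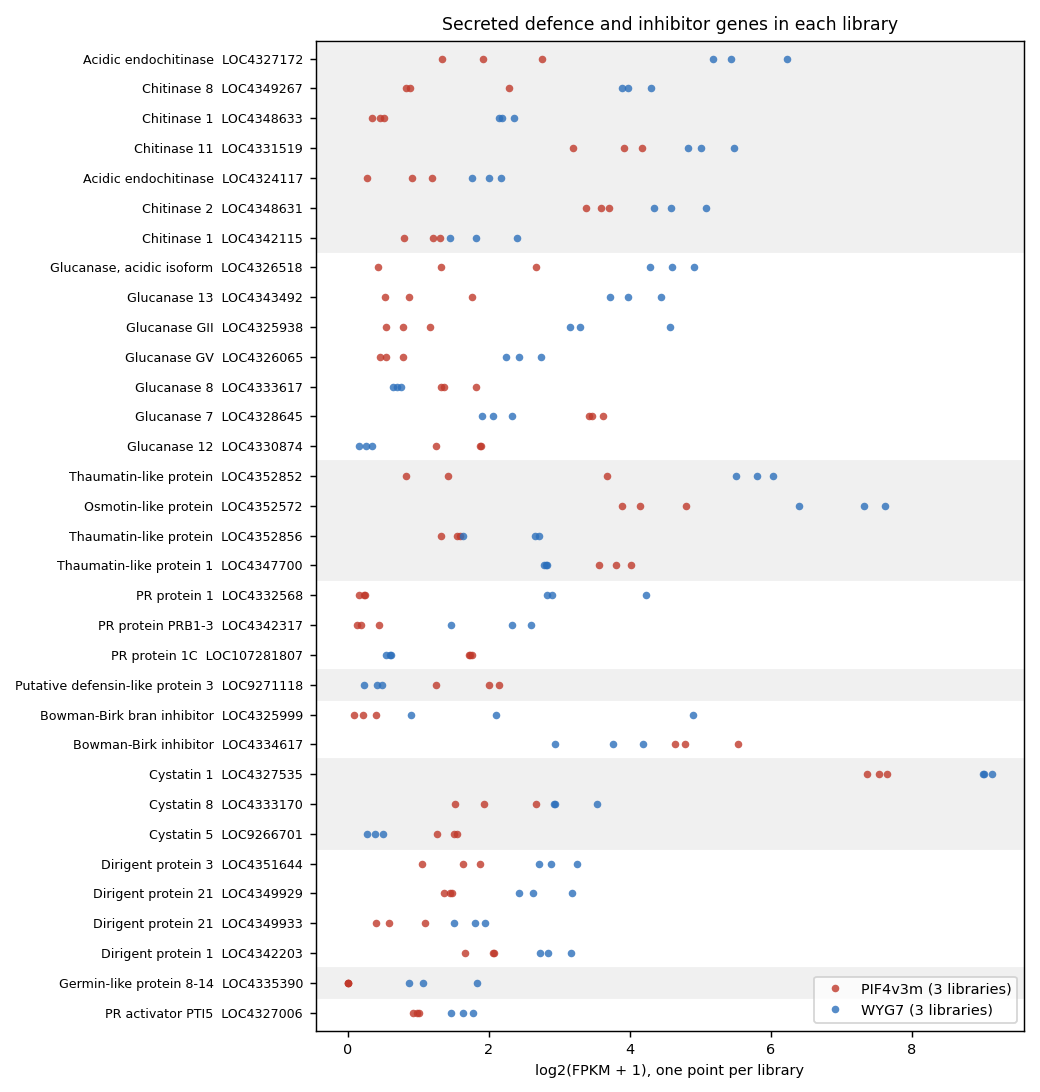
Level of each of the 33 members in each library, as log2(FPKM + 1) on the x axis, with red points for the 3 PIF4v3m libraries and blue points for the 3 WYG7 libraries, and grey bands that separate the families. For 25 members the red points lie left of the blue ones and for 8 they lie right of them, and the red points spread most for the thaumatin-like protein LOC4352852.

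All 7 chitinases were lower in PIF4v3m. The most abundant of them in WYG7, the acidic endochitinase LOC4327172, had 1.52, 2.78 and 5.78 FPKM in PIF4v3m, against 74.1, 35.4 and 42.4 FPKM in WYG7. That is 15.1-fold lower (log2 fold change -3.61, standard error 0.38, adjusted p = 3.59e-05), the largest difference of a chitinase. Chitinase 8 (LOC4349267) had 0.846, 0.774 and 3.87 FPKM in PIF4v3m, against 18.7, 14.7 and 13.7 FPKM in WYG7. It was low in the first and second PIF4v3m libraries and clearly higher in the third, yet still under every WYG7 library (log2 fold change -2.72, standard error 0.36). Chitinase 11 (LOC4331519) was the most abundant chitinase in PIF4v3m, with 8.13, 17 and 14.1 FPKM there, against 43.4, 27.3 and 31.4 FPKM in WYG7, or 2.60-fold lower.

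The chitinases belong to unrelated enzyme families. Chitinase 8, chitinase 11 and the chitinase 1 gene LOC4342115 carry the chitinase class I domain, and the other 4 carry the glycosyl hydrolase 18 domain, so genes of both folds were lower. LOC4342115 had the smallest log2 fold change of the 7, with 0.739, 1.31 and 1.47 FPKM in PIF4v3m and 4.26, 2.53 and 1.73 FPKM in WYG7 (log2 fold change -0.79, standard error 0.25). Its call was lost without PIF4v3m replicate 1 (adjusted p = 0.0538). The glycosyl hydrolase 18 genes annotated as chitinase 1 (LOC4348633) and chitinase 2 (LOC4348631), which resemble enzymes of tulip, have 1 other protein-coding gene between them in the RefSeq order. LOC4348633 was 10.5-fold and its neighbour 2.32-fold lower, at 0.353 ± 0.0774 and 10.8 ± 1.35 FPKM in PIF4v3m and 3.71 ± 0.376 and 25.1 ± 7.07 FPKM in WYG7 (SD, n = 3). The acidic endochitinase LOC4324117, with 0.791 ± 0.545 FPKM in PIF4v3m and 2.98 ± 0.565 FPKM in WYG7, was 3.76-fold lower.

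The 7 β-1,3-glucanases, which all carry the glycosyl hydrolase 17 domain, split into 4 lower and 3 higher genes. The acidic isoform LOC4326518, named after an enzyme of maize, had 0.344, 1.5 and 5.36 FPKM in PIF4v3m, against 29.2, 23.2 and 18.6 FPKM in WYG7 (log2 fold change -3.13, standard error 0.49). LOC4343492 (annotated as glucosidase 13) had 0.448, 0.826 and 2.38 FPKM in PIF4v3m, against 20.7, 12.2 and 14.7 FPKM in WYG7 (log2 fold change -2.99, standard error 0.32). Both genes were highest among the PIF4v3m libraries in the third, and without that library they were 25.6-fold and 24.9-fold lower in place of 9.84-fold and 13.0-fold. The genes named after the barley isoforms GII (LOC4325938) and GV (LOC4326065) were 16.2-fold and 8.89-fold lower. GII reached 22.7 FPKM in WYG7 replicate 1 and was at 8.78 and 7.86 FPKM in the other WYG7 libraries, and without replicate 1 it was 10.3-fold lower.

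The 3 higher glucanases each take their name from an Arabidopsis gene, as does LOC4343492 among the lower ones. LOC4328645 (glucosidase 7) had 11.3, 9.75 and 9.99 FPKM in PIF4v3m, against 4.04, 3.18 and 2.73 FPKM in WYG7 (log2 fold change 1.40, standard error 0.14). LOC4330874 (glucosidase 12) had 2.69, 1.39 and 2.70 FPKM in PIF4v3m, against 0.116, 0.191 and 0.274 FPKM in WYG7, or 11.7-fold higher, the largest fold of any higher member. LOC4333617 (glucosidase 8) was 3.01-fold higher, at 1.87 ± 0.581 FPKM in PIF4v3m and 0.621 ± 0.0579 FPKM in WYG7. β-1,3-glucanases also act on callose, the plant's own β-1,3-glucan, for example at plasmodesmata.

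Of the 4 genes of the thaumatin family, 3 were lower and 1 was higher. The thaumatin-like protein LOC4352852 had the lowest log2 fold change of all members, -3.81 (standard error 0.63, adjusted p = 0.000428). It had 0.780, 1.67 and 11.7 FPKM in PIF4v3m, against 54.9, 64.4 and 44.3 FPKM in WYG7. The third PIF4v3m library stood far above the other two, and without it the gene was 44.6-fold lower in place of 11.5-fold. The osmotin-like protein LOC4352572, of a kind first known from salt-adapted tobacco cells, was the second most abundant member in WYG7. It had 13.8, 16.6 and 26.8 FPKM in PIF4v3m, against 158, 195 and 83.0 FPKM in WYG7, or 7.62-fold lower.

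A second gene with the same Swiss-Prot entry as LOC4352852, LOC4352856, lies 3 protein-coding genes away and showed a smaller difference. It had 1.91, 1.5 and 2.02 FPKM in PIF4v3m, against 5.27, 2.12 and 5.52 FPKM in WYG7, so that WYG7 replicate 2 came close to the PIF4v3m values. Its call (log2 fold change -0.85, adjusted p = 0.0159) was lost without PIF4v3m replicate 2 (adjusted p = 0.0596), without WYG7 replicate 3 (adjusted p = 0.0615) and after quantile normalization (adjusted p = 0.0612). How reads of similar copies were shared out is not stated, so the split between this pair is uncertain. Thaumatin-like protein 1 (LOC4347700), named after an Arabidopsis gene, went the other way, with 15.2, 12.9 and 10.9 FPKM in PIF4v3m and a narrow 6.10, 6.0 and 5.90 FPKM in WYG7.

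Among the genes named as PR proteins, the PR-10-like gene LOC4332568 had the largest fold of all members, 64.5-fold lower. It was at 0.116, 0.185 and 0.167 FPKM in PIF4v3m, against 6.10, 17.7 and 6.44 FPKM in WYG7 (log2 fold change -3.11, standard error 0.34, adjusted p = 4.63e-05). Its description reads PR protein 1, after a gene of asparagus, but its domain is not that of PR-1. Without WYG7 replicate 2, its highest library, it was 40.1-fold lower.

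The 2 members with the PR-1 domain, the cysteine-rich secretory family, are near neighbours with 1 protein-coding gene between them and differed in direction. LOC4342317, named after PRB1-3 of barley, had 0.10, 0.144 and 0.361 FPKM in PIF4v3m, against 4.04, 5.06 and 1.76 FPKM in WYG7, or 18-fold lower (29.7-fold without PIF4v3m replicate 3). LOC107281807, named after the tobacco protein 1C, had 2.34, 2.29 and 2.40 FPKM in PIF4v3m, against 0.510, 0.460 and 0.528 FPKM in WYG7, or 4.70-fold higher. The second gene had tight replicates in both lines, and its log2 fold change was 1.16 (standard error 0.10). The only listed defensin, LOC9271118, was also higher, with 1.37, 3.02 and 3.40 FPKM in PIF4v3m and 0.170, 0.330 and 0.40 FPKM in WYG7.

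The 5 protease inhibitors were 3 lower and 2 higher. Cysteine proteinase inhibitor 1 (LOC4327535), listed in RefSeq as oryzacystatin OC-I and an inhibitor of papain-like proteases, was the most abundant member in both lines. It had 164, 200 and 185 FPKM in PIF4v3m, against 516, 562 and 519 FPKM in WYG7, with little spread between libraries (log2 fold change -1.54, standard error 0.11, adjusted p = 4.97e-06). Inhibitor 8 (LOC4333170) had 1.88, 2.80 and 5.33 FPKM in PIF4v3m, against 10.6, 6.60 and 6.63 FPKM in WYG7, and PIF4v3m replicate 3 came near the lowest WYG7 ones. Inhibitor 5 (LOC9266701), the weakest of the cystatins in WYG7, had 1.39, 1.94 and 1.84 FPKM in PIF4v3m, against 0.214, 0.305 and 0.416 FPKM in WYG7, or 5.53-fold higher.

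The 2 Bowman-Birk inhibitors, which block serine proteases such as trypsin, moved apart. The bran trypsin inhibitor LOC4325999 had 0.0617, 0.167 and 0.318 FPKM in PIF4v3m, against 3.28, 28.7 and 0.854 FPKM in WYG7. WYG7 replicate 2 alone made most of the WYG7 mean, and the gene was 60.0-fold lower with it and 11.3-fold lower without it. The call (log2 fold change -2.39, standard error 0.85, adjusted p = 0.0227) was lost without PIF4v3m replicate 1 (adjusted p = 0.0603) or replicate 2 (adjusted p = 0.0635). The trypsin inhibitor LOC4334617, named after a wheat protein, had 26.4, 23.8 and 45.2 FPKM in PIF4v3m, against 6.66, 17.1 and 12.5 FPKM in WYG7, or 2.63-fold higher, and was the most abundant member of those that were higher.

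All 4 dirigent proteins, which guide the coupling of phenolic radicals in lignan formation, were lower, with log2 fold changes between -1.43 and -0.98. Dirigent protein 3 (LOC4351644) had 1.08, 2.10 and 2.69 FPKM in PIF4v3m, against 8.49, 6.40 and 5.55 FPKM in WYG7. Dirigent protein 1 (LOC4342203) had 2.17, 3.23 and 3.16 FPKM in PIF4v3m, against 7.95, 5.60 and 6.17 FPKM in WYG7. Of the 2 genes annotated as dirigent protein 21, LOC4349929 had 1.80, 1.73 and 1.58 FPKM in PIF4v3m, against 8.04, 4.39 and 5.17 FPKM in WYG7. LOC4349933 was 3.68-fold lower, and folds of the family lay between 2.31 and 3.68.

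The germin-like protein 8-14 (LOC4335390), a cupin protein of the cell wall space, was listed at 0 in each PIF4v3m library, against 2.55, 0.825 and 1.10 FPKM in WYG7, and no fold is given. The transcription factor PTI5 (LOC4327006) had the log2 fold change nearest to 0 of all members. It had 0.905, 1.02 and 0.967 FPKM in PIF4v3m, against 2.11, 1.77 and 2.42 FPKM in WYG7 (log2 fold change -0.65, standard error 0.12).

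**Figure D2:**
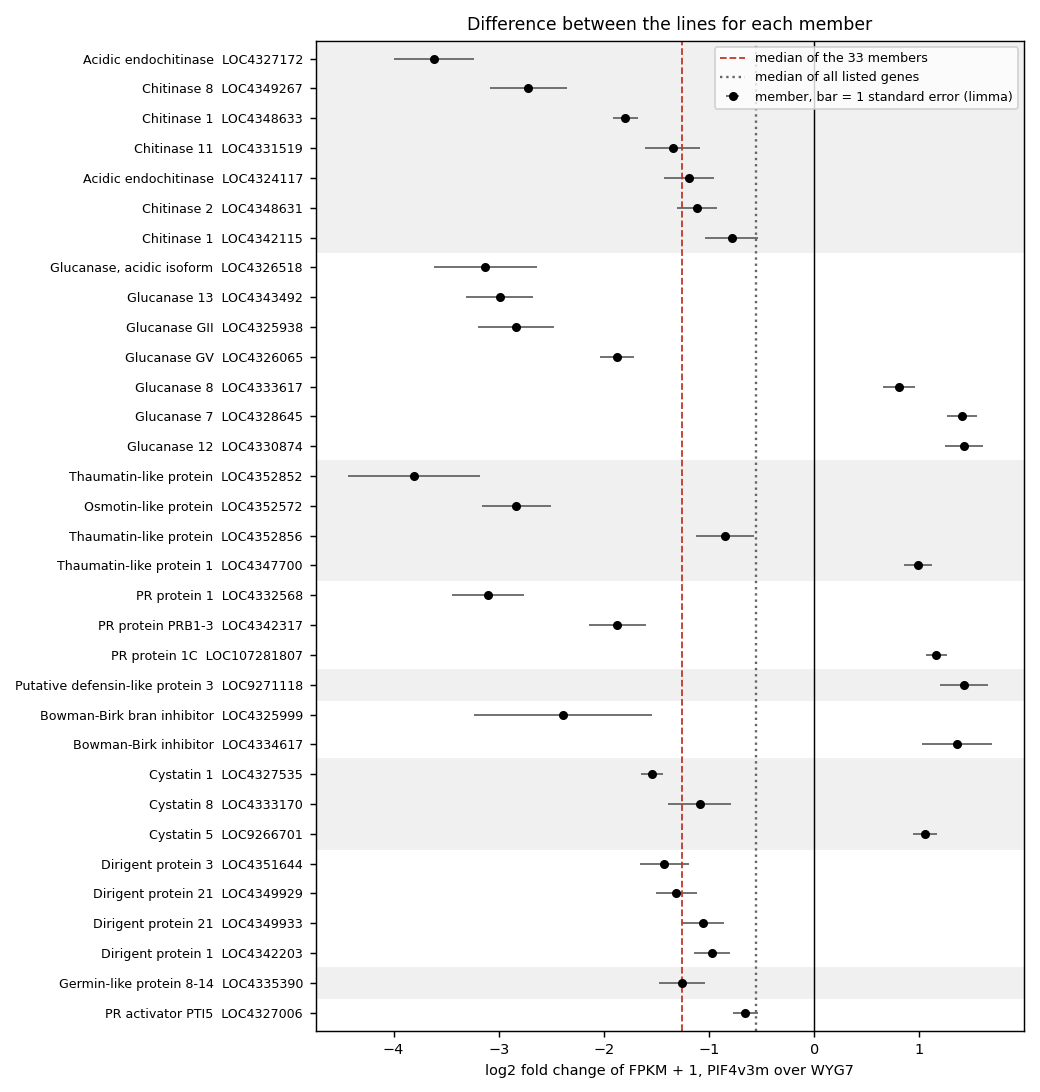
Log2 fold change of FPKM + 1 (PIF4v3m over WYG7) on the x axis for each of the 33 members, with bars of 1 standard error from limma, a dashed line at the median of the members (-1.26) and a dotted line at the median of all listed genes (-0.56). All chitinases and dirigent proteins lie below 0, and each of the higher members lies at or under 1.42.

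The log2 fold changes of the lower members reached -3.81 and those of the higher ones 1.42, whereas over all listed genes they ran from -5.68 to 5.96. An offset of 1 FPKM shrinks low genes most, and with a pseudocount of 0.1 all 25 lower and all 8 higher members passed 2-fold. Every listed gene had already passed 2-fold in the authors' own comparison of these libraries. The count at the smaller offset was therefore largely set by that selection and says little about the members.

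By the ratio of the highest to the lowest library, the libraries of a line were less alike for these genes than over all listed genes. In PIF4v3m, the highest library exceeded the lowest by a median of 1.92-fold for the 30 members with at least 0.1 FPKM in each library, against 1.31-fold for all such listed genes. In WYG7 the medians were 1.61-fold and 1.36-fold. The sets were not matched for level. Median FPKM was 1.87 for the members and 2.91 for all listed genes in PIF4v3m, and 6.0 and 3.84 in WYG7. The part of level in the spread was not tested. Among members lower in PIF4v3m, replicate 3 was the highest PIF4v3m library for 18 of 24 genes (75.0%, leaving out the germin-like gene at 0), against 40.5% of all lower listed genes, and replicate 1 was the lowest for 20 (83.3%, against 49.0%). Among the WYG7 libraries, replicate 1 was the highest for 16 of these 25 genes (64.0%), against 55% of all lower listed genes.

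The third PIF4v3m library stood apart for a small set of genes in which these members were frequent. Of 2161 listed genes with a mean of at least 1 FPKM in PIF4v3m, 9 were at least 2-fold above both other libraries in replicate 3. Of those 9 genes, 5 were members, namely the thaumatin-like protein LOC4352852, chitinase 8, the acidic β-1,3-glucanase LOC4326518, the glucanase LOC4343492 and the acidic endochitinase LOC4327172, out of 23 members at that level. The criterion was chosen after values had been seen, and its mean includes replicate 3, so a gene could pass through that library alone. Chitinase 8 and LOC4343492 were under 1 FPKM in both other libraries, and LOC4326518 had 0.344 and 1.5 FPKM there. The count is therefore a description and no evidence about the members. In PIF4v3m replicates 1 and 2, 3 and 1 listed genes met this criterion, with 0 members among them. Leaving out replicate 3 moved the ratio of the lines by over 1.5-fold for 8 of 24 lower members (33.3%), always towards a larger difference, and for 4.61% of all lower listed genes. In addition to the members given above with their values, chitinase 8 was 19.4-fold lower without this library in place of 8.58-fold, the acidic endochitinase LOC4327172 23.5-fold in place of 15.1-fold, the bran trypsin inhibitor 95.8-fold in place of 60.0-fold, and the dirigent protein LOC4349933 5.87-fold in place of 3.68-fold. Without it, 25 members were lower and 8 higher, as with all libraries.

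**Figure D3:**
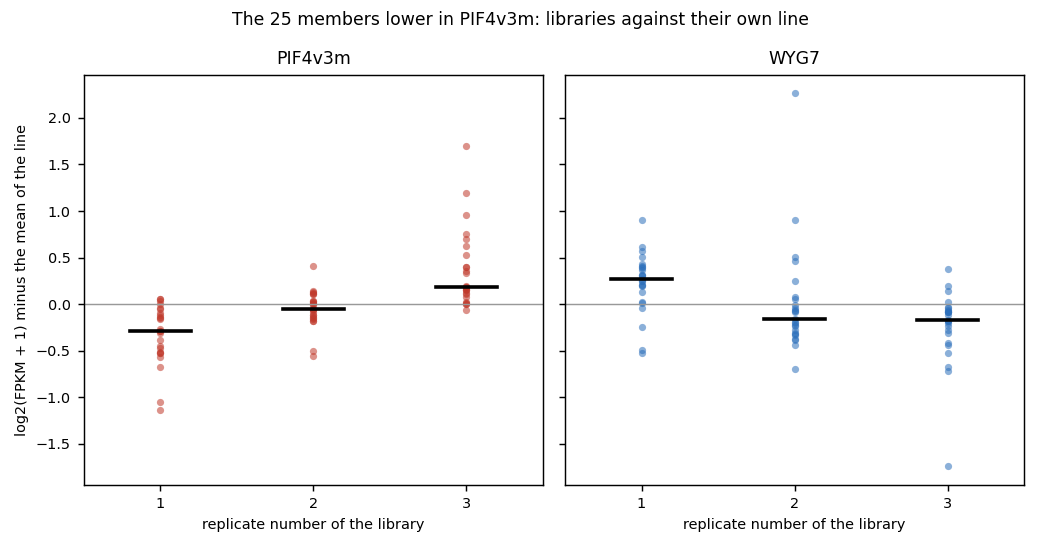
Log2(FPKM + 1) minus the mean of the line on the y axis, for the 25 members lower in PIF4v3m, by library in PIF4v3m (left, red) and WYG7 (right, blue), with 1 point per gene and black bars at the median. In PIF4v3m the median was -0.29, -0.05 and 0.19 in replicates 1, 2 and 3, and in WYG7 it was 0.27, -0.16 and -0.17.

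Listed genes with a protein domain of the families searched for, but another description, were not reached by the search words. They were picked after values had been seen and are given for comparison. Of 15 such genes, 14 were lower and 1 was higher, against 54.1% and 45.8% of all listed genes. The 2 jacalin-like lectin genes, the barwin gene and the potato type II inhibitor gene among them carry domains that no member has. All of these were lower. Next to the osmotin-like gene, with no protein-coding gene between them, lies LOC4352571, of the thaumatin family, which was also lower (log2 fold change -0.53). Zeamatin (LOC4333649), the maize name of a thaumatin-like antifungal protein, had 0.759, 1.10 and 2.31 FPKM in PIF4v3m, against 23.3, 15.9 and 16.7 FPKM in WYG7. The 3 further Bet v 1 genes were lower, among them LOC4352491, with 69.6, 71.3 and 118 FPKM in PIF4v3m, against 467, 231 and 268 FPKM in WYG7. The exception was LOC4338611, described as lichenase-2 and carrying the same glycosyl hydrolase 17 domain as the β-1,3-glucanases. It had 41.2, 24.4 and 29.4 FPKM in PIF4v3m, against 3.77, 2.02 and 3.14 FPKM in WYG7 (log2 fold change 3.03, standard error 0.22), above every member.

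**Figure D4:**
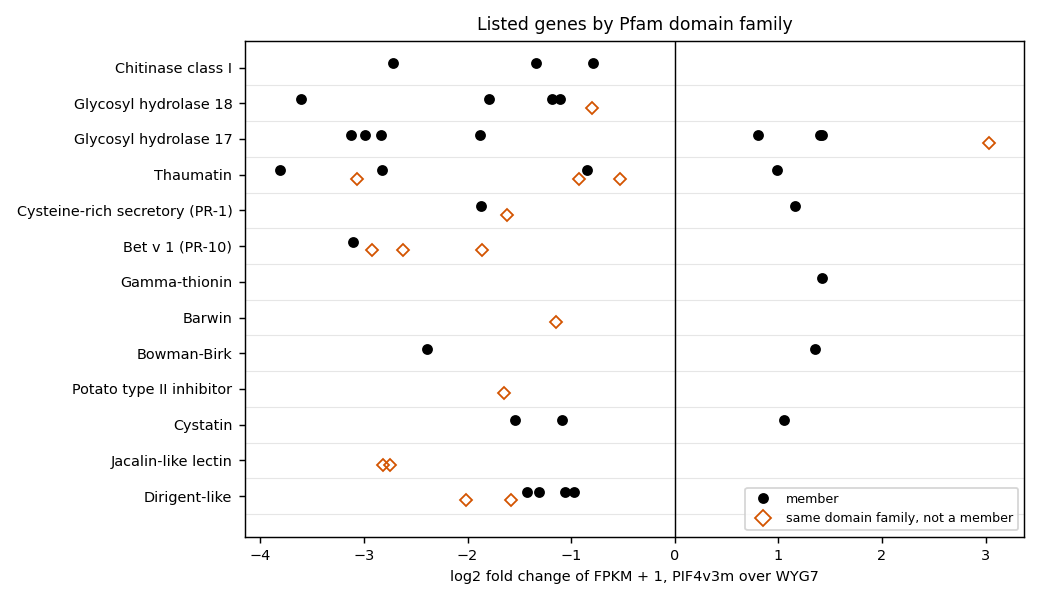
Log2 fold change of FPKM + 1 (PIF4v3m over WYG7) by Pfam domain family, with filled circles for the members of each family and open diamonds for the 15 other listed genes with such a domain. The barwin, jacalin-like lectin and potato type II inhibitor families hold no member. Glycosyl hydrolase 17, thaumatin, cysteine-rich secretory, Bowman-Birk and cystatin genes lie on both sides of 0, and the 7 chitinases and 4 dirigent members lie on the lower side.

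Listed genes of groups linked to defence, picked by their descriptions, are given by count, from a table in which 54.1% were lower and 45.8% higher. The part of each such gene in defence was not examined. Of 23 listed transcriptional regulators (WRKY, TGA, TIFY and MYC factors), 14 were lower (60.9%, not far from the share of all listed genes) and 9 higher. Their median log2 fold change was -0.75, against -0.56 for all listed genes. WRKY76 (LOC4347069), a WRKY factor of rice immunity, had 0.198, 0.0238 and 1.21 FPKM in PIF4v3m, against 33.4, 19.2 and 25.3 FPKM in WYG7. The TGA factor TGAL1 (LOC9266109), of the bZIP family that binds NPR1, was higher, with 18.3 ± 3.04 FPKM in PIF4v3m and 4.28 ± 0.516 FPKM in WYG7. Of 13 listed lipoxygenases, oxophytodienoate reductases and phenylalanine ammonia-lyases, 11 were lower and 2 higher. These families include enzymes of jasmonate or salicylate synthesis, but which of these genes act there was not examined. Phenylalanine ammonia-lyase, the entry to phenylpropanoids and to one route to salicylic acid, had 7 listed genes, of which 6 were lower, with LOC4330034 at 1.3 ± 0.407 FPKM in PIF4v3m and 38.7 ± 14.7 FPKM in WYG7, and LOC4352358 was higher. Of 7 listed kinases, described as BAK1 or as kinases of mitogen-activated cascades, 4 were lower (57.1%, near the share of all listed genes) and 3 higher. Of 12 peroxidases (ascorbate peroxidases included) and lipid-transfer proteins, 6 were lower and 6 higher.

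Markers of the leaf and of other cell types are given beside these values, from a table in which 54.1% of genes were lower and 45.8% higher. Of 9 listed photosynthetic genes 5 were lower and 4 higher, with a summed level of 6756 to 9034 FPKM in PIF4v3m and 13800 to 14590 FPKM in WYG7. Chlorophyll a-b binding protein 1 (LOC4346803), of the light-harvesting antenna, had 820, 649 and 904 FPKM in PIF4v3m, against 5838, 5349 and 4954 FPKM in WYG7. The small Rubisco subunit (LOC4352016) had 3056, 2372 and 3121 FPKM in PIF4v3m, against 1255, 841 and 1217 FPKM in WYG7. The leaf genes thus went both ways, and genes of the antenna and of Rubisco were abundant in every library. Of 12 listed kinesin and histone genes, picked as markers of dividing cells, 11 were higher and 1 was lower. They summed to 55.9 to 61.6 FPKM in PIF4v3m and 23.0 to 29.0 FPKM in WYG7. Past 2-fold, 3 were higher and 0 lower, against 26.6% and 33.9% of all listed genes. How specific each is to dividing cells was not examined. As epidermal wax markers, 10 genes described as GDSL esterase/lipases or enzymes of very-long-chain lipids were picked. Whether each acts in wax or the epidermis was not examined. Of these 10, 5 were lower and 5 higher, summing to 127 to 140 FPKM in PIF4v3m and 80.1 to 97.3 FPKM in WYG7. A single gene, the GDSL esterase/lipase EXL3 (LOC4327980), set that order, and without it the sums were 34.5 to 44.4 FPKM in PIF4v3m and 65.0 to 81.9 FPKM in WYG7. The only listed marker of secondary walls, laccase-6 (LOC107276446), was lower and was listed at 0 in PIF4v3m replicates 1 and 3. The part of these differences in the values of the members was not tested, and in bulk leaf RNA fewer cells of a type cannot be told apart from less RNA per cell.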

How the data were processed

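The deposited table holds FPKM of 2995 genes in 6 libraries. Beside them stand the FDR (an adjusted p-value) and the log2 fold change of the authors, which were not used. In every row that FDR is under 0.01 and the absolute log2 fold change over 1, so the deposited table holds called genes. STAR and Cufflinks appear in the study's methods. StringTie 1.3.0, HISAT2 2.0 and Bowtie 0.12.2 appear in the notes of the submitters, with the mouse build mm8, so the tools behind the FPKM are not settled. No coordinates are given.

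Log2(FPKM + 1) was compared two-sided in R 4.3.3 using the trended fit of limma 3.58.1 (Benjamini-Hochberg over all listed genes with a mean above 0.01 FPKM, which all 33 members passed). In simulated data for this comparison (2995 genes, 200 of them changed), the fit recovered 83% of changes of 2-fold and 99% of those of 4-fold and called 10 unchanged genes. The changed genes were drawn only from genes with a mean log2(FPKM + 1) over 2 in WYG7. The recovery rates therefore do not cover members lower than that in WYG7, such as LOC9271118 (mean 0.30 FPKM) and LOC4330874 (mean 0.193 FPKM). The deposited table also differs from the simulated data in that every gene was preselected. Members, families, gene lists and tests were chosen with earlier results of these data known. For each family the text gives all values of the most abundant member of each line and of the 2 members with the largest log2 fold change in each direction, and other members by range, neighbourhood or shared annotation. All 33 gene IDs matched the RefSeq table of ASM3414082v1, used for gene names and order only. Sequences were not used here. Tables and figures used pandas 2.3.3, scipy 1.17.1 and matplotlib 3.10.9 in Python 3.11.15. Alternatives were other pseudocounts, filters, scalings and variance models, a replicate block, a stricter threshold and each library left out in turn.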

Additional observations from a re-analysis of the deposited data

How the results depend on the processing

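No alternative reversed a member, and 519 of 528 member values kept their call. As the authors had selected these genes on the same libraries, this says little about robustness. The other 9 values were of LOC4325999, LOC4342115 and LOC4352856, which lost their calls at an adjusted p under 0.01 or under the single alternatives named above. The median log2 fold change of the members was -1.68 with a pseudocount of 0.1, -1.73 with 0.01 and -1.55 after TPM rescaling, and an offset that is smaller against the values shrinks low genes less. The rescaling set the listed genes of each library to the same total. As that total covers only called genes, the values are not TPM in the usual sense, and a difference in it between the lines is removed. Quantile normalization moved the median of all listed genes by 0.23 and TPM rescaling by -0.39. Past 2-fold, quantile normalization gave 8 members higher and 18 lower. Without single libraries, the members' median ranged from -1.39 to -1.10, members lower from 23 to 25, members higher stayed at 8, members past 2-fold ranged from 5 to 7 higher and from 17 to 23 lower, and listed genes from 1361 to 1371 higher and from 1610 to 1618 lower. The replicate block left 8 members higher and 25 lower, with a median of -1.26. Libraries with the same number had deviations from their line with correlations of -0.068, 0.003 and -0.097, so the numbers showed no pairing. The planned strand alternative for promoter motifs was not run, as no sequences were used here. Without counting intervals, genes under 1 FPKM are the least certain.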

Other observations

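WYG7 replicate 2 stood above its line for another small set. Of 2363 listed genes with a mean of at least 1 FPKM in WYG7, 10 were at least 2-fold above both other WYG7 libraries in it, a criterion chosen after values had been seen. The mean again includes the tested library, and the linalool synthase given below was under 1 FPKM in both other WYG7 libraries. Of these, 2 were members, the Bowman-Birk bran trypsin inhibitor LOC4325999 (28.7 FPKM there, 3.28 and 0.854 FPKM in WYG7 replicates 1 and 3) and the PR-10-like gene LOC4332568 (17.7 FPKM there, 6.10 and 6.44 FPKM in replicates 1 and 3). The linalool synthase LOC4328124, an enzyme of volatile terpene formation, was listed at 0 in each PIF4v3m library, and had 5.37 FPKM in WYG7 replicate 2, with 0.718 and 0.573 FPKM in replicates 1 and 3. TIFY 10c (LOC4347164), of the family of jasmonate signalling repressors, had 0.172, 0.320 and 0.569 FPKM in PIF4v3m, and 8.69 FPKM in WYG7 replicate 2, with 2.65 and 1.60 FPKM in replicates 1 and 3. WYG7 replicate 1 met the same criterion for 35 listed genes, of which 2 were members, and replicate 3 for 4, with 0 members.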
